A study of Mus musculus with 4 samples.

Results

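Rad9a and Rps6kb2 are near neighbours on mouse chromosome 19, and both had more RNA after knockdown of Aurora-A in 2 colorectal cancer lines. They are described here together with some of the genes beside them, namely Tmem134, Coro1b, Ptprcap, Tbc1d10c, Ppp1ca, Clcf1 and Pold4. These 9 genes are 9 of 32 annotated genes between 4.0 and 4.3 Mb of the chromosome, and of 51905 genes in all. Rad9a and Rps6kb2 were chosen by their counts, which were higher in the knockdown of both lines, so their own change is described without a test. The other 7 lie beside the pair but were not taken by position alone. Cabp4, Gpr152 and Carns1, at 0 or 1 fragment in each library, lie in the same span and are not among them. The 7 were also chosen with earlier results of these data known. The question was whether genes adjacent to or overlapping the pair rose or fell with it.

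The libraries were 4, with 1 for each condition. CT26 and MC38 are mouse colorectal carcinoma lines grown in culture, with a wild-type genotype in the labels. Each was infected with lenti-shGFP, whose hairpin targets GFP and which served as control, or with lenti-shmaurka-1, whose hairpin targets mouse Aurka, so that all cells carried a lentiviral hairpin and the knockdown rested on a single hairpin sequence. RNA was taken 48 h after seeding. With 1 library per condition, differences inside a line are unreplicated, and the 2 lines are the only repeat of the knockdown. Nothing in the labels tells whether the libraries came from separate cultures or infections.

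Rad9a encodes the subunit of the 9-1-1 clamp (Rad9, Hus1 and Rad1) that carries the tail through which ATR signalling is activated, and the clamp is loaded onto damaged or stalled DNA. Rps6kb2 encodes S6 kinase beta, a kinase that mTORC1 switches on and that phosphorylates ribosomal protein S6. Among the neighbours, Ppp1ca encodes a catalytic subunit of protein phosphatase PP1, which opposes Aurora-A and other mitotic kinases, and Coro1b encodes a coronin that works on branched actin at the cell edge. Pold4 is the smallest subunit of DNA polymerase delta. Clcf1 encodes a secreted cytokine that signals through the CNTF receptor complex with LIFR and gp130. Ptprcap and Tbc1d10c encode a CD45-associated protein and a Rab GTPase-activating protein of lymphocytes, and Tmem134 encodes a small membrane protein of poorly known function.

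On the GRCm38 build used by the deposited coordinates, the genes stand in the order Tmem134, Coro1b, Ptprcap, Rps6kb2, Tbc1d10c, Ppp1ca, Rad9a, Clcf1 and Pold4. The files place Rad9a (ENSMUSG00000024824) and Ppp1ca (ENSMUSG00000040385) in a single shared locus, chr19:4192157-4201603, and Rps6kb2 (ENSMUSG00000024830) and Ptprcap (ENSMUSG00000045826) in another, chr19:4154605-4163354. RefSeq on the same build ends Ppp1ca, on the plus strand, at 4195419 and Rad9a, on the minus strand, at 4195196, so their 3′ ends overlap tail to tail by 224 bases. Ptprcap, on the plus strand, and Rps6kb2, on the minus strand, end 81 bases apart in RefSeq. In the longer gene models of GENCODE on GRCm39 they share 1224 exonic bases on opposite strands, which is 76.0% of the exonic length of Ptprcap and 20.8% of that of Rps6kb2. For Ppp1ca and Rad9a the shared exonic stretch was 230 bases, 9.01% and 6.75% of their exonic lengths. Coro1b and Ptprcap share 434 exonic bases on 1 strand. Tbc1d10c and Ppp1ca are head to head, with starts separated by 978 bases, 12565 bases separate Rad9a from Clcf1, and RefSeq holds a long noncoding RNA, LOC102631992, across both Clcf1 and Pold4, and another, Gm45928, that starts inside Clcf1 and runs over nearly all of Pold4. The libraries were made with a strand-specific kit, but whether the counting used the strand is not given in the sources used here. Where genes on opposite strands overlap, reads of the shared bases could therefore have been assigned to either gene.

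The 4 libraries held between 22207769 and 23752267 fragments. Aurka, the targeted gene, had 5724 fragments in the CT26 control and 1093 in the CT26 knockdown, a log2 fold change of -2.27 (exact 95% interval -2.36 to -2.17). In MC38 it had 2300 and 413, a log2 fold change of -2.44 (-2.60 to -2.30). The labels call CT26 a fibroblast and MC38 an epithelial cell. The 9 epithelial markers summed to 42.7 to 43.0 FPKM (fragments scaled to transcript length and library depth) in CT26 and 0.964 to 1.29 in MC38, so the label of MC38 was not borne out by these markers. In CT26 the sum came mostly from Krt18 (33.7 and 37.4 FPKM) and Krt20 (8.45 and 4.41), while Epcam, Cdh1, Vil1 and Cldn7 had at most 2 fragments. The 8 mesenchymal markers summed to 1844 to 1863 FPKM in CT26 and 596.4 to 630.2 in MC38.

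Before the knockdown is described, the level of the whole neighbourhood has to be given, because it was low and uneven in all 4 libraries. Of the 21 protein-coding genes from Gstp1 to Ankrd13d, which hold all 9 genes described, 8 were listed at 0 fragments in every library (38.1%) and 11 never exceeded 3 fragments (52.4%). Over all 20615 protein-coding genes of the files these shares were 23.1% and 34.3%. The genes listed at 0 included Pitpnm1, and Cdk2ap2 had 1 fragment in 1 library. An exact 0 in these files can be a failed estimate and may not be an absence of RNA. No gene of the 21 reached 20 FPKM, a level passed by 27.1% of all protein-coding genes, and the highest was Ppp1ca at 17.8 FPKM. Ndufv1, the next gene on 1 side, had 47.1 to 62.1 FPKM, and Grk2, the next on the other side, had 29.4 to 35.9 FPKM. Low levels were not limited to the stretch, since Ndufv1 was the 1 gene of the 10 before it that reached 20 FPKM, against 6 of the 10 after it. The bounds of this stretch were drawn after its levels were seen. Between 91.9% and 100% of the 31-base words of the 9 genes' annotated exons occurred only once in the primary assembly of GRCm39, with a median of 99.2%. The deposited coordinates are on GRCm38 and words across exon junctions were not counted, so this cannot show how the authors' reads were placed. The part of the low levels in the results below was not tested.

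**Figure D1:**
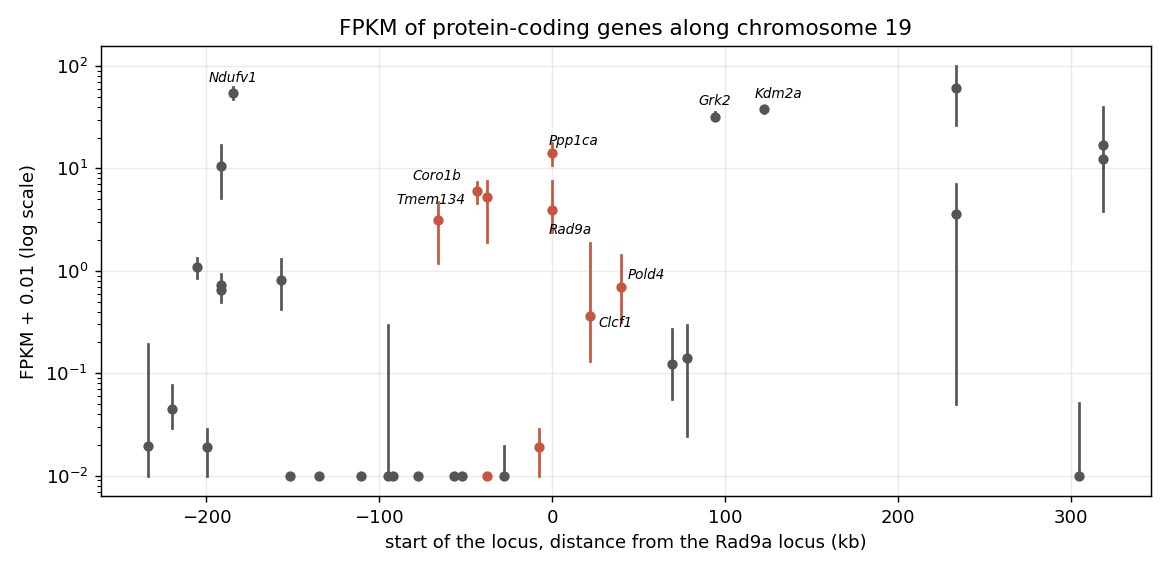
FPKM of each protein-coding gene (points are medians and bars the range over the 4 libraries, on a log axis after adding 0.01) against the distance of its locus from that of Rad9a in kb, with the 9 genes described in red and other genes in grey. Genes between Ndufv1 and Grk2 lie at or below 17.8 FPKM and several sit at 0, while Ndufv1 and Grk2 on either side lie above 29 FPKM.

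Rad9a was counted at 131 fragments in CT26 shGFP, 294 in CT26 shmaurka-1, 123 in MC38 shGFP and 246 in MC38 shmaurka-1. Both knockdown libraries lay above both controls. The fold of the deposited counts was 2.43 in CT26, a log2 fold change of 1.28 (95% interval 0.99 to 1.60), and 2.03 in MC38, a log2 fold change of 1.02 (0.71 to 1.35). Its FPKM was 2.97 and 7.52 in CT26, and 2.36 and 4.78 in MC38, ratios of 2.53 and 2.02. The intervals are exact conditional binomial intervals on fragments, compare single libraries and cover counting error only.

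Rps6kb2 was counted at 185 fragments in CT26 shGFP, 305 in CT26 shmaurka-1, 90 in MC38 shGFP and 300 in MC38 shmaurka-1. Both knockdown libraries lay above both controls. The fold by counts was 1.79 in CT26 (log2 0.84, interval 0.57 to 1.11) and 3.37 in MC38 (log2 1.75, interval 1.42 to 2.12). Its FPKM was 4.68 and 7.48 in CT26, and 1.90 and 5.76 in MC38, ratios of 1.60 and 3.04. The order of the pair thus turned between lines, with Rad9a showing the higher fold in CT26 and Rps6kb2 the higher fold in MC38.

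Both genes were past 1.5-fold in both lines, the values that chose them. Of the 11928 genes averaging 10 or more counts in CT26 and also in MC38, 3.20% were above 1.5-fold in CT26, 2.47% in MC38 and 0.360% in both. Among the 10035 genes averaging 50 or more counts in both lines, 12 were above 1.5-fold in both. Ranked by the line with the lower fold, Rad9a was number 2 (2.03) and Rps6kb2 number 4 (1.79). The last gene inside the threshold was Lmo4 at 1.5015 and the first outside was Cacna1c at 1.4989. The gene nearest to Rad9a in its 2 log2 fold changes was Desi2 (1.502 in CT26, 0.78 in MC38, at a Euclidean distance of 0.33), followed by Lrrc8a (0.86 and 0.93) and Kcnj2 (1.04 and 0.63). For Rps6kb2 it was Txnrd2 (0.80 and 2.17, distance 0.42), followed by Cxcl10 (0.34 and 1.45) and Ifi27l2a (0.77 and 1.14). None of these 6 lies on chromosome 19.

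**Figure D2:**
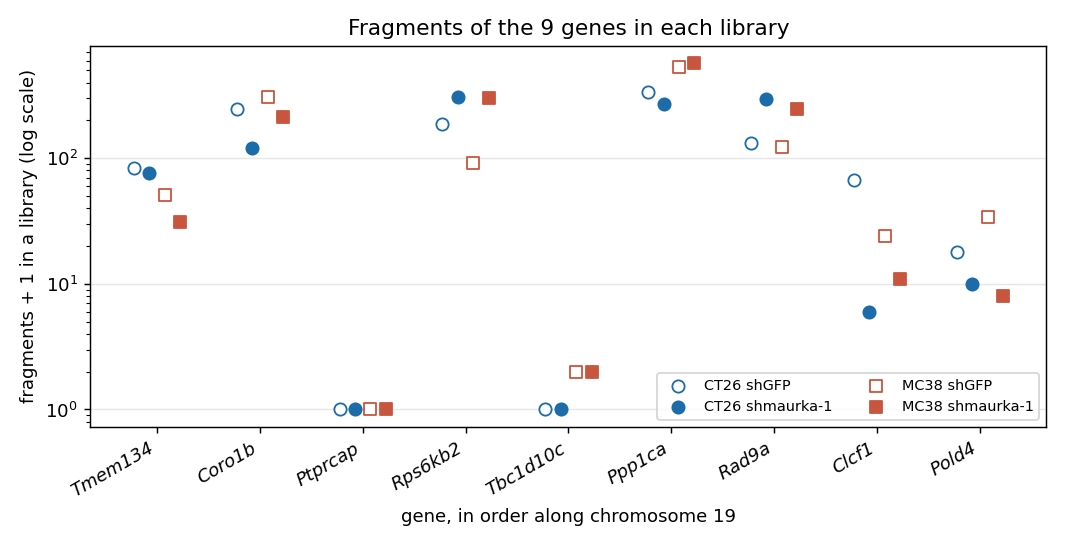
Fragments plus 1 (log axis) of the 9 genes, in order along the chromosome, in each of the 4 libraries, with open symbols for shGFP and filled symbols for shmaurka-1. For Rad9a and Rps6kb2 the filled symbols lie above the open ones of the same line, for Coro1b, Clcf1 and Pold4 below, and Ptprcap and Tbc1d10c lie at 0 or 1 fragment.

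None of the 7 neighbours was called higher with the pair. Of the 5 that passed the filter on low counts, 0 were above 1.5-fold in either line, and edgeR's quasi-likelihood test of the effect common to both lines, blocked by line and adjusted over all genes tested by the Benjamini-Hochberg method, called 0 higher and 2 lower, Coro1b and Clcf1. Clcf1 reached the 10 counts of the filter only through its controls, so the number called lower among those that passed is no support for a fall of the neighbours as a group. Over all 11928 genes the same test called 1.67% higher and 1.12% lower. In bulk RNA, fewer cells with a transcript and less of it in each cell cannot be told apart. The test has 1 residual degree of freedom and takes its spread from all genes, and DESeq2 called none of the 3 to which it gave an adjusted p. It gave none to Clcf1 and Pold4. At an unadjusted p under 0.05 there were 3 of 10 window genes by edgeR and 2 by DESeq2, besides the pair. Over all 11928 genes there were 1469 by edgeR and 497 by DESeq2. The 5 had medians of -0.74 in CT26 and -0.69 in MC38 on the log2 scale, against -0.01 and 0.00 over all genes tested. These medians are a description only, since they include Clcf1 and Pold4, and Pold4 also passed the filter in MC38 through its control.

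Coro1b, the actin regulator on the near side of the Rps6kb2 locus, was the best counted neighbour that fell. It had 244 fragments in CT26 shGFP, 120 in CT26 shmaurka-1, 307 in MC38 shGFP and 213 in MC38 shmaurka-1. Each knockdown library was below both controls. The fold was 0.537 in CT26 (log2 -0.90, interval -1.23 to -0.58) and 0.709 in MC38 (log2 -0.50, interval -0.76 to -0.24). In edgeR's quasi-likelihood test the common log2 fold change was -0.69 with an adjusted p of 0.0127, and DESeq2 gave -0.70 ± 0.29 (SE) with an adjusted p of 0.704. The call was also lost with a filter of 50 counts (adjusted p 0.082), with limma on FPKM (0.305) and without the line as a block (1).

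The deposited FPKM gave a smaller drop of Coro1b in CT26. It was 7.35 with shGFP and 5.13 with shmaurka-1, a ratio of 0.698, against 6.92 and 4.57 in MC38, a ratio of 0.660. The length that FPKM and count imply together for Coro1b was 1.40 kb in the CT26 control and 1.05 kb in the CT26 knockdown, a ratio of 0.753 where the median gene had 0.968, and 3.67% of 2178 genes with similar counts were as far from the median. In MC38 the lengths were 1.94 and 2.04 kb. The lengths were computed with the deposited count totals, which were 25115610 in CT26 shGFP and 20278412 in MC38 shGFP. They therefore compare libraries of 1 line and cannot be compared between the lines. For Rad9a the lengths were 1.86 and 1.76 kb in CT26 and 2.27 and 2.26 kb in MC38. For Rps6kb2 they were 1.67 and 1.84 kb in CT26 and 2.07 and 2.28 kb in MC38, a ratio of 1.10 in both lines. Clcf1 had a ratio of 1.25 in CT26 and 0.844 in MC38, and 11.5% and 17.5% of genes with similar counts were as far.

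Clcf1, the cytokine gene on the far side of Rad9a, had 66 fragments in CT26 shGFP, 5 in CT26 shmaurka-1, 23 in MC38 shGFP and 10 in MC38 shmaurka-1. Both knockdown libraries lay below both controls, at low counts. The fold was 0.0954 in CT26 (log2 -3.39, interval -5.27 to -2.31) and 0.470 in MC38 (log2 -1.09, interval -2.41 to -0.05). By FPKM it was 1.88 and 0.122 in CT26 and 0.463 and 0.240 in MC38. The common log2 fold change was -2.47 with an adjusted p of 2.26e-05 in edgeR's quasi-likelihood test. Its deposited counts were 69.8 and 20.4 in the controls and 5.83 and 9.01 in the knockdowns, so it passed the filter of 10 counts through the controls. With no filter on low counts edgeR's adjusted p was 0.000142. DESeq2 gave -2.36 ± 0.87 (SE) and set no adjusted p, limma on FPKM gave an adjusted p of 0.243, and edgeR without the block gave 1.

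Pold4, the next gene, had 17 fragments in CT26 shGFP, 9 in CT26 shmaurka-1, 33 in MC38 shGFP and 7 in MC38 shmaurka-1. The knockdown libraries were again the lowest, but the test did not call it. In CT26 the knockdown differed by a log2 fold change of -0.74 (interval -2.15 to 0.45), and in MC38 by -2.05 (-3.63 to -1.01). The common value was -1.45 with an adjusted p of 0.086 in edgeR's quasi-likelihood test, and from 0.0591 to 1 over its alternatives. Its FPKM was 0.866 and 0.517 in CT26, and 1.42 and 0.308 in MC38.

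Ppp1ca overlaps Rad9a and shares its locus in the files, and its counts did not follow those of Rad9a. It had 339 fragments in CT26 shGFP, 268 in CT26 shmaurka-1, 532 in MC38 shGFP and 570 in MC38 shmaurka-1. Within a line the 2 libraries were close, and the direction differed between lines. In CT26 the log2 fold change came to -0.22 (interval -0.45 to 0.02), in MC38 to 0.13 (-0.04 to 0.30), and by FPKM the ratios were 0.876 and 1.10. The common log2 fold change was -0.04 with an adjusted p of 0.967 in edgeR's quasi-likelihood test, and DESeq2 gave -0.04 ± 0.23 (SE).

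Because the files hold the pair in 1 locus, their fragments were also added. Of the fragments of Rad9a and Ppp1ca together, Rad9a took 27.9% in the CT26 control and 52.3% in the CT26 knockdown. In MC38 it took 18.78% and 30.15%. The sum was 470 and 562 fragments in CT26, a log2 fold change of 0.38 (interval 0.20 to 0.56), and 655 and 816 in MC38, a log2 fold change of 0.35 (0.20 to 0.50). The sum holds the Rad9a fragments that chose the gene, so its higher value is a description and no separate result.

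Tmem134 had 82 fragments in CT26 shGFP, 76 in CT26 shmaurka-1, 50 in MC38 shGFP and 30 in MC38 shmaurka-1. It was level in CT26 (log2 0.01, interval -0.46 to 0.48) and lower in the MC38 knockdown (log2 -0.69, interval -1.41 to -0.03). The common value was -0.27 with an adjusted p of 0.829 in edgeR's quasi-likelihood test.

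Ptprcap, which overlaps Rps6kb2, was listed at 0 fragments and 0 FPKM in all 4 libraries. Tbc1d10c was listed at 0 in both CT26 libraries and at 1 fragment in each MC38 library, 0.0185 FPKM with shGFP and 0.0187 with shmaurka-1. Neither passed the filter, and no fold is given for them. Of the 14 leukocyte markers, 5 to 7 exceeded 3 fragments in a library, and the list summed to 6.35 to 13.0 FPKM. Lck, a T cell kinase gene, had 7.74 and 8.39 FPKM in CT26, and Cd68, a macrophage gene, had 3.30 to 4.97 over the 4 libraries. Cd3d and Cd79a had 19 to 30 fragments in the MC38 libraries and 0 in CT26. Ptprc, which encodes the CD45 that Ptprcap binds, had at most 3 fragments, and Cd3e and Nkg7 were at 0 in all 4 libraries.

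**Figure D3:**
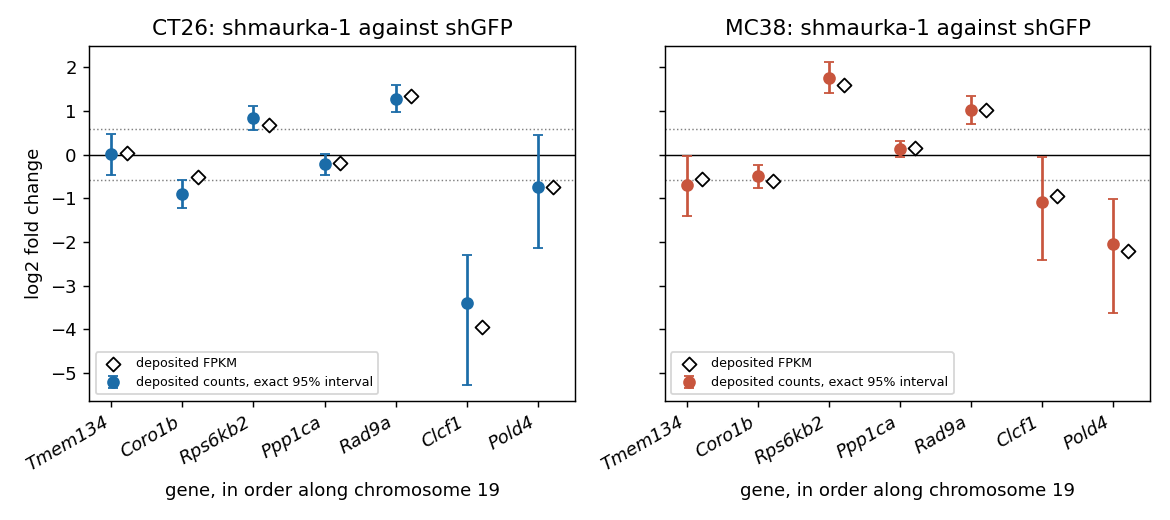
Log2 fold change of shmaurka-1 against shGFP in CT26 and MC38 for the 7 genes that passed the filter, from counts (filled, with exact 95% intervals of counting error) and from FPKM (open diamonds), with dotted lines at 1.5-fold either way. Rps6kb2 and Rad9a lie above the upper dotted line in both lines by both measures, Clcf1 and Pold4 lie below the lower one, and Ppp1ca lies near 0.

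Counted by size alone, 3 of the 5 neighbours that passed the filter were below 1/1.5-fold in CT26 (Coro1b, Clcf1 and Pold4), where 4.29% of all genes tested were, and 3 were in MC38 (Tmem134, Clcf1 and Pold4), where 2.02% were. By FPKM the number was 2 in CT26, without Coro1b, and 3 in MC38, where Coro1b took the place of Tmem134. Clcf1 in both lines and Pold4 in MC38 (29.2 and 6.30 counts) passed the filter through the control libraries, so these shares are a description and are not support. Clcf1 and Pold4 were below in both lines, as were 0.411% of all genes. The exact interval left out no change for 2 of the 5 in CT26 and 4 of the 5 in MC38. The shares over all genes were 43.2% and 45.0%, so those interval counts say little about the neighbours.

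Of the other 23 genes of the window, 12 were at 0 in every library and 5 passed the filter (Doc2g, both entries named Nudt8, Ndufv1 and Grk2), of which edgeR called 0. The medians of these 5 were -0.01 in CT26 and -0.04 in MC38 on the log2 scale. Doc2g, at 33 and 17 fragments in CT26 and 32 and 33 in MC38, was the 1 of the 5 below 1/1.5-fold in CT26, with log2 fold changes of -0.79 and 0.06. Ndufv1, a subunit of respiratory complex I, had 1588 and 1446 fragments in CT26 and 2551 and 2386 in MC38, log2 fold changes of -0.01 and -0.07. Grk2, a receptor kinase, had 2504 and 2315 in CT26 and 3577 and 3394 in MC38, log2 fold changes of 0.01 and -0.05. These 2 genes stood within 0.07 of no change. The better counted entry named Nudt8 (ENSMUSG00000110949), with 118 and 86 fragments in CT26 and 352 and 401 in MC38, stood at -0.34 and 0.22. Ssh3, a cofilin phosphatase gene just beyond Pold4, did not pass the filter. It had 19 and 6 fragments in CT26 and 12 and 4 in MC38, log2 fold changes of -1.42 and -1.33.

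RefSeq's table of promoter windows on GRCm38.p6 held 1 of the 9 genes, Pold4. Its 250 bases before the start, chr19:4231643-4231892 on the plus strand, are shown because Pold4 is a neighbour with lower values in both knockdown libraries, with capitals marking the CCAAT word and the GC box (GGGCGG) on either strand.

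Pold4: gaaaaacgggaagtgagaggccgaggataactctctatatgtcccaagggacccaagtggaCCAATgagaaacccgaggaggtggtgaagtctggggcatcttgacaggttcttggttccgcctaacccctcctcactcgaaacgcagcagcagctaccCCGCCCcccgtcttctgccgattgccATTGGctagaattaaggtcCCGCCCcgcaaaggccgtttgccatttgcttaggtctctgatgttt

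The window has a GC content of 55.2% and 12 CpG, against medians of 52.4% and 6 over 32851 windows of the same length. The CCAAT word occurs 2 times, 1 on each strand, and 33.8% of all windows hold it at least once. The GC box occurs 2 times, both on the minus strand, and 32.7% of all windows hold it. The 4 matches do not overlap. Other words were searched on both strands and were not in this window. The first, TATAAA, the TATA box, is in 12.4% of all windows. The core of the CHR element of cell-cycle promoters, TTTGAA, is in 16.0%. The E2F word, TTTGGCGC, is in 0.417%. These matches describe letters only.

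Between the lines, a contrast that the choice of genes did not use, 5 of the 7 genes that passed the filter were called by edgeR's quasi-likelihood test, 1 higher and 4 lower in MC38 than in CT26. Over all genes tested the share called was 73.3%, so a call here is the common case. Tmem134 was lower in MC38 by a log2 fold change of -1.29 (adjusted p 3.28e-05), Rps6kb2 by -0.75 (1.38e-04), Rad9a by -0.47 (0.0205) and Clcf1 by -1.18 (0.00955), and Ppp1ca was higher by 0.58 (1.83e-04), all by edgeR's test. Coro1b (0.28) and Pold4 (0.21) were not called. The value of Clcf1 held only in the controls, with 66 fragments in CT26 and 23 in MC38, and turned in the knockdowns, with 5 and 10. For Rps6kb2 the gap was wider in the controls (185 and 90 fragments) than in the knockdowns (305 and 300). Total-count scaling moved all line differences by 0.29 on the log2 scale, and under it Rad9a and Clcf1 lost their calls and Coro1b was called. DESeq2 called Tmem134, Rps6kb2 and Ppp1ca.

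In FPKM, which allows comparison between genes, the order in the controls was the same from Ppp1ca to Coro1b in both lines. Ppp1ca led with 12.4 in CT26 shGFP and 16.1 in MC38 shGFP, followed by Coro1b with 7.35 and 6.92. Rps6kb2 (4.68), Tmem134 (4.52) and Rad9a (2.97) followed in CT26, and Rad9a (2.36), Rps6kb2 (1.90) and Tmem134 (1.73) in MC38. Clcf1 and Pold4 stood below 2 FPKM in every library. Spread between libraries of 1 condition was not measured, so neighbours in this order cannot be separated beyond counting error.

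Several of the genes stood below close relatives or partners encoded elsewhere in the genome. All 9 lie in the stretch of low levels described above, and its part in these orders was not tested. Ppp1ca, at 10.9 to 17.8 FPKM over the 4 libraries, compared with Ppp1cb at 67.0 to 93.3 and Ppp1cc at 70.5 to 75.3, the other catalytic subunits of PP1. Of the 31-base words of the exons of Ppp1cc, 41.1% occurred only once in GRCm39, against 98.5% for Ppp1ca and for Ppp1cb. Rps6kb2, at 1.90 to 7.48 FPKM, compared with Rps6kb1 at 17.7 to 22.3, and Coro1b, at 4.57 to 7.35, with Coro1c at 27.8 to 45.1. Of the other coronins, Coro7 lay above Coro1b at 9.35 to 13.5 FPKM, Coro1a at 0.0472 to 0.962 and Coro6 at 0.0287 to 0.110 lay below it, and Coro2a ranged from 0.464 to 5.97. Pold4, at 0.308 to 1.42 FPKM, compared with Pold1 at 8.96 to 22.7, Pold2 at 18.1 to 64.9 and Pold3 at 10.7 to 25.2. Rad9a, at 2.36 to 7.52 FPKM, compared with its clamp partners Rad1 at 9.98 to 12.4 and Hus1 at 13.7 to 19.95, and its paralog Rad9b lay at 2.32 to 7.47.

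Few partners of the 9 genes were called. Over all 7 lists, without Rad9a and Rps6kb2, edgeR called 4 of 74 genes, 2 higher and 2 lower, and the latter were Coro1b and Clcf1 themselves. With total-count scaling the calls were 1 higher and 3 lower, as Rfc5 lost its call and Lifr was called, and with no filter on low counts Rfc5 lost its call too. In the list of the 9-1-1 clamp and ATR checkpoint, 18 of 19 genes passed the filter, and, leaving out Rad9a, Hus1 and Rfc5 rose and 0 fell. With Rad9a in it, the list had log2 medians of 0.12 in CT26 and 0.07 in MC38. Hus1, the clamp subunit that pairs with Rad9a, had 857 and 1027 fragments in CT26 and 1030 and 1485 in MC38, log2 fold changes of 0.38 and 0.56 (adjusted p 0.00789 by edgeR's test, 0.381 by DESeq2). Rfc5, a subunit of the clamp loader, had 867 and 985 fragments in CT26 and 2292 and 3001 in MC38, log2 fold changes of 0.30 and 0.42 (adjusted p 0.04 by edgeR's test, 0.693 by DESeq2). Rad1, the remaining subunit, stood at -0.21 and 0.01 and Rad9b, the paralog of Rad9a, at 0.12 and 0.30, neither called.

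The mTORC1 and S6 kinase list had 20 of 20 genes past the filter. Leaving out Rps6kb2, which was chosen for its change, 0 were called. With Rps6kb2 in it, the list had medians of 0.02 in CT26 and 0.03 in MC38, and the paralog Rps6kb1 stood at 0.06 and 0.10. None of the 17 genes of PP1 and its regulatory subunits was called, with Ppp1cb at 0.12 and -0.07 and Ppp1cc at 0.01 and 0.11. Of the 9 genes of DNA polymerase delta and its clamp 0 were called, with medians of 0.20 and -0.01. Pold1 stood at 0.31 and -0.26, Pold2 at 0.32 and 0.01 and Pold3 at 0.25 and -0.01. In the 4 of 7 coronins that passed, Coro1b was the 1 call, and Coro1c stood at -0.01 and -0.06. In the 5 of 10 genes of CLCF1 ligands and receptors that passed, Clcf1 was the 1 call. The TBC1D10 list had 3 of 5 past the filter and 0 called. All of these counts are read against the 1.67% and 1.12% called over all genes.

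**Figure D4:**
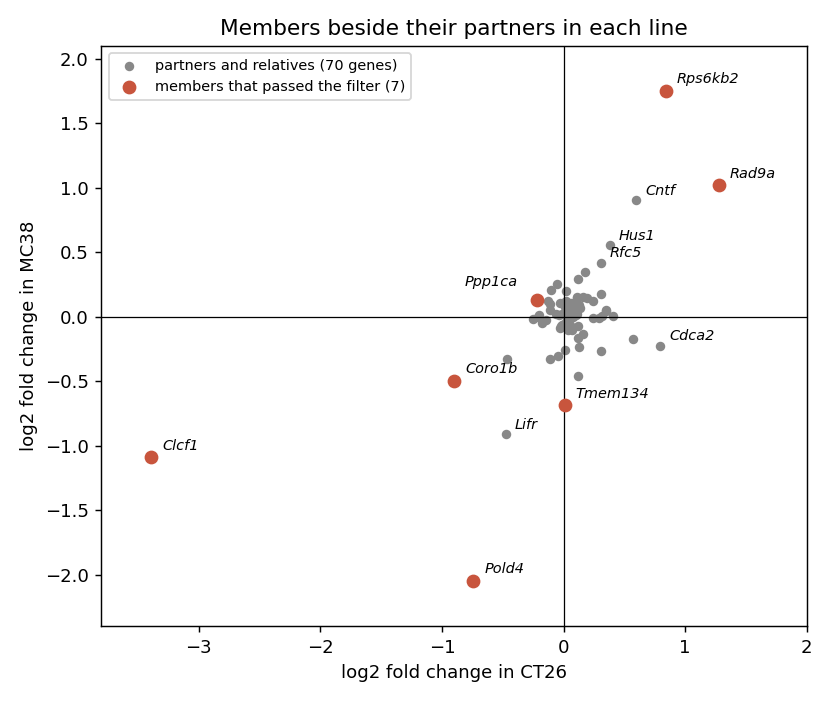
Log2 fold change in MC38 against that in CT26 (shmaurka-1 against shGFP, deposited counts) for the 7 genes that passed the filter (red) and the 70 tested genes of their lists (grey). Most grey points lie within 0.5 of the origin, Rad9a and Rps6kb2 lie far up in the upper right, and Clcf1, Pold4 and Coro1b lie in the lower left.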

How the data were processed

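Reads were trimmed with Trimmomatic 0.36, aligned with HISAT2 and quantified with Cufflinks 2.2.1 and Cuffdiff, per the submitters' processing notes, with the roles of the tools taken from their usual use. The notes name GRCm39, but 99.7% of 20049 deposited loci overlapped the same gene in RefSeq on GRCm38.p6 and 8.91% of 26888 on GRCm39, so coordinates are given as GRCm38. For 51905 genes the authors deposited FPKM and estimated counts. The deposited estimated counts were scaled between libraries, and 96.97% to 97.59% of nonzero values were whole multiples, within 0.05, of a step of 0.884919 to 1.16686. Dividing by the step gave fragments, which are used for levels and intervals.

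Counts were rounded and tested with edgeR 4.0.16 (R 4.3.3) after TMM normalization, with terms for line and knockdown, in genes averaging 10 or more counts in CT26 and also in MC38, and called at an adjusted p under 0.05. Fold changes within a line are ratios of scaled counts with 1 count added. Alternatives were DESeq2 1.42.0, limma 3.58.1 on log2(FPKM + 0.1), other scalings, filters and pseudocounts, and models without the line or knockdown term. The edgeR test of the common effect was checked on simulated data, with the same change in both lines and a spread that was set in advance. It recovered 43.5% of simulated 1.5-fold changes and 97.5% of 3-fold changes, so a gene not called may still have changed. The members and lists were chosen with earlier results of these data known. Genes were named as members, as window genes called or past 1.5-fold in both lines, as up to 2 called genes of each list in each direction, as close relatives, and as the 3 nearest patterns. Pitpnm1, Cdk2ap2, Ndufv1, Grk2 and the genes of the closing observations were named after their values were seen. Sequences and promoter windows are from RefSeq, and strands and exonic overlaps from GENCODE vM39. Python 3.11.15 was used for the other computations.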

Additional observations from a re-analysis of the deposited data

How the results depend on the processing

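The tests pair control and knockdown by cell line as a block, and with 1 library in each group none could be left out. Without the block 0 of all genes were called, with 13 at an unadjusted p under 0.05. Of 207 values under alternatives, 179 stayed within the bounds set (1.5-fold for a count, 0.2 in log2 for a median, the exact interval for a fold) and no call changed direction. The 179 include the folds of Ptprcap and Tbc1d10c, which say nothing of stability. The intervals of Ptprcap, and of Tbc1d10c in CT26, had no limits, and that of Tbc1d10c in MC38 ran from -6.27 to 6.32. Tmem134 in CT26, which was not called, went from 0.01 to -0.01 in log2 under total-count scaling. The 333 calls of the common effect became 29 with DESeq2, 101 with the filter of 50 counts and 6 with limma on FPKM. Total-count scaling moved the higher calls from 59.8% to 49.1%, and those of the line difference from 50.1% to 64.7%. The 2 neighbours called became 0 under DESeq2, the filter of 50 counts, limma and the fit without the block, as did the 4 calls of the lists, but Clcf1 had no adjusted p in DESeq2 and was left out by that filter, so it could not be called there. The 5 line calls of the members became 3 with DESeq2 and with the filter of 50 counts, which tested 4 of them, and 2 without a knockdown term. The neighbours' median in CT26 was -0.52 from FPKM without a pseudocount, -0.51 with 0.1 and -0.30 with 1, and in MC38 it was -0.33 with 1. With FPKM + 1, 1 member was above 1.5-fold in CT26 and 1 was below 1/1.5-fold in each line. Low counts limit Clcf1, Pold4 and Tmem134, and no change could be measured for Ptprcap and Tbc1d10c.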

Other observations

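A second stretch of chromosome 19 also held many genes at or near 0. Its levels were lower than those of the neighbourhood of Rad9a and Rps6kb2, where the highest was 17.8 FPKM. From Ppp2r5b to Slc22a12, chr19:6226379-6544899, 7 of 12 protein-coding genes were listed at 0 in all 4 libraries (58.3%) and 10 of 12 never exceeded 3 fragments (83.3%), and the highest level was 0.676 FPKM. The stretch holds Men1, which encodes the nuclear protein menin, and Sf1, which encodes a splicing factor that most cells use. It was chosen after its levels were seen. No knockdown comparison can be made in it, since its counts are too low.

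Cdca2, which encodes Repo-Man, a protein that brings PP1 to mitotic chromatin, moved in opposite directions in the lines. In CT26 the control held 1325 fragments and the knockdown 2117, a log2 fold change of 0.80 (exact 95% interval 0.70 to 0.90), and 1397 and 1172 in MC38, a log2 fold change of -0.22 (-0.34 to -0.11). The intervals cover counting error only and the difference between lines was not tested. Cntf, a ligand of the receptor that Clcf1 uses, had 96 and 134 fragments in CT26 and 10 and 20 in MC38, and Lifr, a receptor subunit, had 17 and 11 in CT26 and 344 and 179 in MC38. Neither was called by edgeR's quasi-likelihood test in its main setting (adjusted p 0.319 and 0.0568). Lifr was called with total-count scaling and when fragments were tested in place of counts. These genes were picked from the lists after their values were seen.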
